A study of Mus musculus with 9 samples.

Results

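The enzymes that carry glucose 6-phosphate to lactate below hexokinase were examined in CD43-KO and Vec MC38 tumours of the mouse. The members were the 10 genes Gpi1, Pfkl, Pfkp, Aldoa, Tpi1, Gapdh, Pgk1, Pgam1, Eno1 and Ldha, taken by their symbols from the 42454 gene names of the count tables. All 10 were abundant and all passed the filter on low counts, which kept 18243 names in all. MC38 is a mouse colon carcinoma cell line that forms tumours in C57BL/6J mice. Per the labels, 5 tumours grew from MC38 cells with a knockout of CD43 (CD43-KO) and 4 from MC38 cells labelled Vec, whose genotype is given as WT. All were grown in C57BL/6J mice and taken at day 21 after inoculation, and bulk RNA of whole tumour tissue was sequenced. CD43 is the cell surface sialoglycoprotein encoded by Spn, and the knockout lay in the implanted cells, while the labels name no change in the host mice. The labels give neither the age or sex of the mice nor whether the knockout line was a single clone. Replicate numbers follow deposition order, and the labels do not say whether each came from a separate animal, so the p-values measure the spread between these tumours only.

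Glycolysis splits glucose into pyruvate in the cytosol and recovers a small amount of ATP and NADH on the way. In many tumours the pathway runs fast even with oxygen present, and lactate dehydrogenase turns pyruvate into lactate, which leaves the cell and acidifies the tissue. Hypoxia-inducible factor 1 (HIF-1), a transcription factor that is stabilised when oxygen is low, binds near many of these genes, and MYC binds near several of them. T cells and macrophages that enter a tumour also turn the pathway up when activated. In bulk tissue, fewer cells of a type and less RNA per cell cannot be told apart.

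Total counts ranged from 44814061 to 62194418 in CD43-KO libraries and from 60751738 to 72114385 in Vec libraries, and the lowest belonged to CD43-KO replicate 3. Levels below are CPM, counts relative to the library total, scaled by TMM factors, which match the bulk of genes between libraries. The factors lay between 0.985 and 1.06 except in CD43-KO replicate 3 (0.961) and Vec replicate 4 (0.891). Spn averaged 24.0 ± 10.5 CPM in CD43-KO tumours and 45.8 ± 5.56 CPM in Vec tumours (SD, n = 5 and 4), with no overlap of the groups, as in 3.50% of all genes tested in that direction. Its adjusted p was 0.280 by edgeR quasi-likelihood, 0.0982 by DESeq2 and 0.136 by limma voom, so none of these tests called it. CD43-KO replicate 3 held skeletal muscle and fat transcripts: its mean log2 CPM over 12 muscle markers lay 3.32 above the Vec mean, with -0.49 to -0.01 in the other CD43-KO tumours and -0.11 to 0.22 in Vec tumours. Fat markers (8 genes) lay 3.49 above the Vec mean there, but at -1.92 to -0.94 in the other CD43-KO tumours and at -0.86 to 0.41 in Vec tumours. Leukocyte markers (12 genes) were at 0.70, 1.04, 1.41, -0.13 and -0.00 in CD43-KO replicates 1 to 5 on the same scale, and between -0.17 and 0.14 in Vec tumours. Of 7 epithelial markers, Krt8 and Krt18 were not among the names tested. The other 5 were low except Cdh1, at 11.5 CPM in CD43-KO and 10.5 CPM in Vec tumours. Krt19 averaged 0.614 CPM in CD43-KO and 0.603 CPM in Vec tumours, Epcam 0.518 and 0.654 CPM, and Cldn4 0.245 and 0.693 CPM. Krt7 averaged 0.120 CPM in CD43-KO and 0.345 CPM in Vec tumours, with no overlap of the groups, as in 3.50% of all genes tested in that direction. Fold changes of the enzymes are given with and without CD43-KO replicate 3 and Vec replicate 4, a pair chosen after the values of the enzymes had been seen.

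Transcripts of 9 of the 10 enzymes had a lower mean in CD43-KO tumours, by 0.23 to 0.48 on the log2 scale, and none passed the edgeR quasi-likelihood test over all genes (Benjamini-Hochberg adjusted p from 0.205 for Gpi1 to 0.708 for Pfkp). The median log2 fold change of the 10 was -0.27, beside 0.03 over all 18243 genes tested, of which 46.0% lay below 0. For Gpi1, Aldoa and Pgam1 the highest CD43-KO tumour lay below the lowest Vec tumour, a pattern that 3.50% of all genes tested showed. That test called 0 of all genes lower (0%) and 0 higher. At an unadjusted p under 0.05, it gave 1392 lower genes (7.63%) and 1414 higher genes (7.75%), and 4 of the enzymes were among the lower ones: Gpi1, Aldoa, Pgam1 and Ldha. DESeq2 called 365 of 16733 genes lower (2.18%), among them Gpi1 and Aldoa with adjusted p of 0.0462 and 0.0493, and 247 higher, with no enzyme among them. limma voom with sample quality weights called 372 genes lower (2.04%) and none of the enzymes. In repeats of the edgeR quasi-likelihood test the share of all genes called lower was 0.00346% without the filter on low counts, 0.00555% without CD43-KO replicate 2 and 0.113% without Vec replicate 3, with no enzyme among them.

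**Figure D1:**
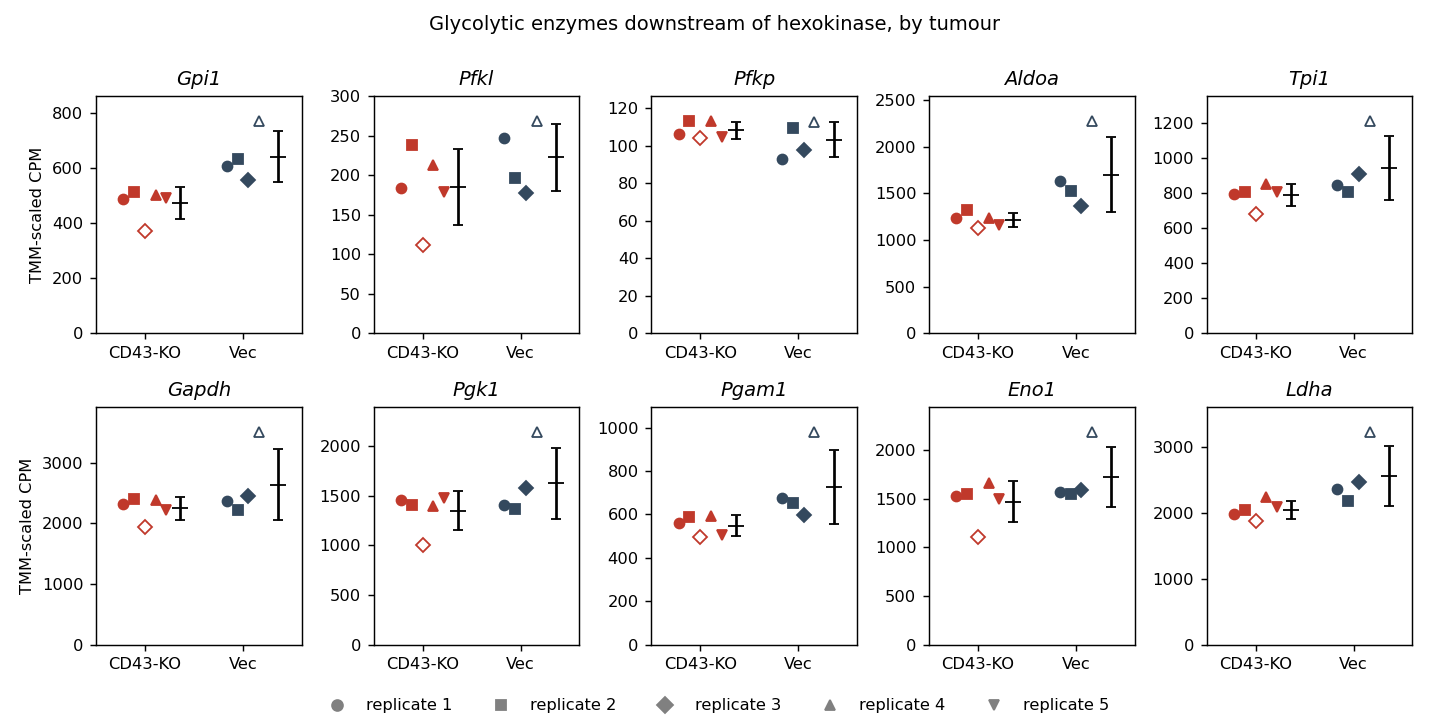
TMM-scaled CPM (vertical axes, from 0) of the 10 enzymes in each tumour, CD43-KO in red on the left and Vec in dark blue on the right of each panel; symbols stand for replicates, open symbols for CD43-KO replicate 3 and Vec replicate 4, and bars for the mean ± SD (n = 5 and 4). Groups do not overlap for Gpi1, Aldoa and Pgam1, and Vec replicate 4 is the highest tumour in 9 panels.

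Together the 10 enzymes took 1.13%, 1.14%, 0.846%, 1.14% and 1.10% of the counts in CD43-KO replicates 1 to 5, against 1.17%, 1.13%, 1.16% and 1.48% in Vec replicates 1 to 4. CD43-KO replicate 3 was low and Vec replicate 4 high, while the other 7 tumours lay close together and their groups overlapped. The mean was 1.07 ± 0.128% in CD43-KO and 1.24 ± 0.166% in Vec libraries (SD, n = 5 and 4). CD43-KO replicate 3 had the lowest level of all 9 tumours for 9 of the 10 enzymes, and Vec replicate 4 the highest level for 9 of the 10. In that library's case the scaling adds to the gap, since a TMM factor of 0.891 raises each of its levels.

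**Figure D2:**
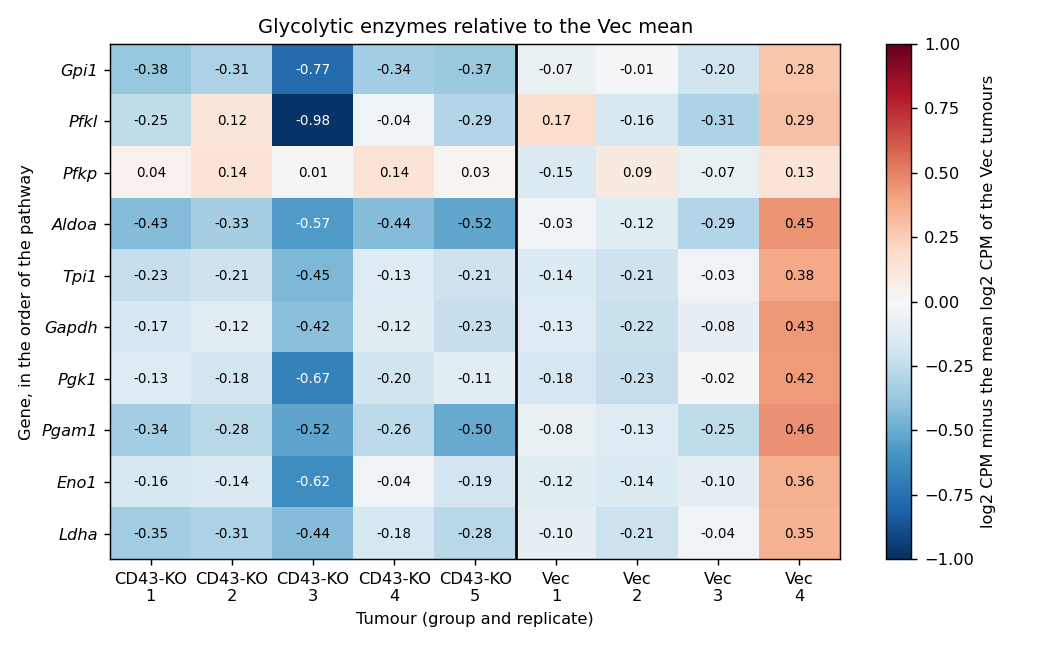
Log2 CPM of each enzyme (rows, in pathway order) in each tumour (columns, CD43-KO left of the line and Vec right of it), as the difference from the mean log2 CPM of the 4 Vec tumours; blue is below that mean and red above. The column of CD43-KO replicate 3 reaches -0.98 for Pfkl, the column of Vec replicate 4 is red throughout, and Pfkp stays between -0.15 and 0.14 in every tumour.

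The first of these steps is the turning of glucose 6-phosphate into fructose 6-phosphate by glucose 6-phosphate isomerase, encoded by Gpi1 (GRCm38.p6, chromosome 7, 34201327 to 34230336, minus strand). Gpi1 was at 488, 513, 372, 502 and 490.4 CPM in CD43-KO tumours, against 607, 630.4, 554 and 769 CPM in the Vec tumours. All CD43-KO tumours lay below all Vec tumours, and the 4 CD43-KO tumours other than replicate 3 spanned a narrow range. The means were 473 ± 57.4 CPM in CD43-KO and 640.1 ± 91.9 CPM in Vec tumours (SD), a log2 fold change of -0.44 ± 0.13 (SE; edgeR quasi-likelihood adjusted p = 0.205). An exact permutation test (two-sided, with every split of the 9 tumours into 5 and 4) gave p = 0.00794, the smallest p it can give, not adjusted for the number of genes. Without CD43-KO replicate 3 and Vec replicate 4 the log2 fold change was -0.27, and the groups still did not overlap, at 488 to 513 CPM in CD43-KO and 554 to 630.4 CPM in Vec tumours. Gpi1 was also the one enzyme whose groups stayed apart when CPM were taken on library totals alone, at most 535.1 CPM in CD43-KO and at least 546 CPM in Vec tumours, as did 2.1% of all genes tested in that direction.

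Phosphofructokinase commits the sugar to glycolysis by adding a second phosphate, and it is the main control point of the pathway. Its liver-type subunit Pfkl (chromosome 10, 77986947 to 78009807, minus strand) was at 184, 238, 111, 213 and 179 CPM in CD43-KO tumours, against 247, 197, 178 and 269 CPM in the Vec tumours. The groups overlapped widely, and only CD43-KO replicate 3 lay outside the range of the Vec tumours. The log2 fold change was -0.26 ± 0.20 (SE; edgeR quasi-likelihood adjusted p = 0.544), and without CD43-KO replicate 3 and Vec replicate 4 it was -0.03.

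The platelet-type subunit Pfkp (chromosome 13, 6579874 to 6649060, minus strand) was at 106, 113, 104, 113 and 105 CPM in CD43-KO tumours, against 92.9, 109, 97.8 and 113 CPM in the Vec tumours. It was the one enzyme with a higher mean in CD43-KO tumours, and the groups overlapped. Pfkp averaged 108 ± 4.54 CPM in CD43-KO and 103 ± 9.39 CPM in Vec tumours (SD), a log2 fold change of 0.07 ± 0.08 (SE; edgeR quasi-likelihood adjusted p = 0.708). The 95% interval ran from -0.12 to 0.25, so it holds no fall of the size seen in the means of the other 9 enzymes. Across the 9 tumours its coefficient of variation was 6.69%, beside 17.1% to 24.96% in the other enzymes. Per kilobase of transcript, Pfkp made up 29.0%, 26.3%, 35.8%, 27.7% and 29.2% of phosphofructokinase transcripts (Pfkl, Pfkp and the muscle type Pfkm) in CD43-KO tumours, against 21.7%, 28.3%, 28.2% and 24.1% in Vec tumours. The highest share belonged to CD43-KO replicate 3, the groups overlapped, and the two-sided exact permutation p was 0.143.

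Aldolase splits the 6-carbon sugar into a pair of 3-carbon phosphates, and Aldoa encodes the isoform of muscle and of most tumours. Aldoa (chromosome 7, 126795234 to 126800994, minus strand) was at 1238, 1328, 1127, 1233 and 1164 CPM in CD43-KO tumours, against 1633, 1531, 1362 and 2277 CPM in the Vec tumours. No CD43-KO tumour reached the lowest Vec tumour, and replicate 3 lay close to the other CD43-KO tumours. On the log2 scale Aldoa had the largest difference of the 10: 1218 ± 77.2 CPM in CD43-KO and 1701 ± 400.3 CPM in Vec tumours (SD), a log2 fold change of -0.48 ± 0.14 (SE; edgeR quasi-likelihood adjusted p = 0.216; two-sided exact permutation p = 0.00794). Without Vec replicate 4 it was -0.32, and without CD43-KO replicate 3 as well it was -0.29 with no overlap of the groups. On library totals alone the log2 fold change was -0.38 and the groups overlapped, with up to 1385 CPM in CD43-KO tumours and from 1341 CPM in Vec tumours. Aldoa made up over 99.5% of the aldolase A and C transcripts per kilobase in every tumour, CD43-KO replicate 3 with its muscle transcripts included.

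Triose phosphate isomerase, encoded by Tpi1, makes both 3-carbon phosphates usable, and glyceraldehyde 3-phosphate dehydrogenase, encoded by Gapdh, then oxidises the sugar and makes NADH. Tpi1 (chromosome 6, 124810586 to 124814158, minus strand) was at 791, 806, 679, 849 and 806 CPM in CD43-KO tumours, against 846, 805, 908 and 1209.65 CPM in the Vec tumours. Gapdh (chromosome 6, 125161852 to 125166467, minus strand) was at 2309.95, 2392, 1938, 2377 and 2213 CPM in CD43-KO tumours, against 2365, 2226, 2446 and 3500.2 CPM in the Vec tumours. In both genes the 4 CD43-KO tumours other than replicate 3 overlapped with Vec replicates 1 to 3, and Vec replicate 4 stood above all others. For Tpi1 the log2 fold change was -0.26 ± 0.13 (SE; edgeR quasi-likelihood adjusted p = 0.363), and for Gapdh it was -0.23 ± 0.14 (SE; edgeR quasi-likelihood adjusted p = 0.448). Without CD43-KO replicate 3 and Vec replicate 4 these were -0.07 and -0.02.

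Phosphoglycerate kinase, encoded by Pgk1, makes the first ATP of the pathway, and phosphoglycerate mutase, encoded by Pgam1, moves the remaining phosphate. Pgk1 (chromosome X, 106187100 to 106203699, plus strand) was at 1456, 1404, 1001, 1392 and 1476 CPM in CD43-KO tumours, against 1409, 1363, 1579 and 2138 CPM in the Vec tumours. All CD43-KO tumours but replicate 3 lay among Vec replicates 1 to 3, and the log2 fold change was -0.27 ± 0.16 (SE; edgeR quasi-likelihood adjusted p = 0.434) with all tumours and -0.02 without CD43-KO replicate 3 and Vec replicate 4. Pgam1 (chromosome 19, 41911871 to 41918665, plus strand) was at 562, 588, 496, 595 and 503 CPM in CD43-KO tumours, against 676, 653, 598 and 979 CPM in the Vec tumours. Its groups did not overlap, but the highest CD43-KO tumour and the lowest Vec tumour nearly touched, at 594.9 and 598.3 CPM. Pgam1 averaged 548.8 ± 46.6 CPM in CD43-KO and 727 ± 171 CPM in Vec tumours (SD), a log2 fold change of -0.40 ± 0.14 (SE; edgeR quasi-likelihood adjusted p = 0.262; two-sided exact permutation p = 0.00794). It was -0.20 without CD43-KO replicate 3 and Vec replicate 4, and on library totals alone the groups overlapped, with up to 613 CPM in CD43-KO tumours and from 589 CPM in Vec tumours.

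Enolase, encoded by Eno1, makes phosphoenolpyruvate, and lactate dehydrogenase A, encoded by Ldha, turns pyruvate into lactate and restores NAD+. Eno1 (chromosome 4, 150236708 to 150248879, plus strand) was at 1529, 1545, 1108, 1661 and 1495 CPM in CD43-KO tumours, against 1569, 1552, 1593 and 2182 CPM in the Vec tumours. CD43-KO replicate 4 lay above Vec replicates 1 to 3, so the groups overlapped, and the log2 fold change was -0.23 ± 0.15 (SE; edgeR quasi-likelihood adjusted p = 0.455) with all tumours and -0.02 without CD43-KO replicate 3 and Vec replicate 4. Ldha (chromosome 7, 46842274 to 46855627, plus strand) was at 1992, 2047, 1873, 2242 and 2088 CPM in CD43-KO tumours, against 2369, 2183, 2467 and 3228 CPM in the Vec tumours. Only CD43-KO replicate 4 exceeded a Vec tumour, which was Vec replicate 2. The means of Ldha were 2048 ± 135 CPM in CD43-KO and 2562 ± 459 CPM in Vec tumours (SD), a log2 fold change of -0.32 ± 0.13 (SE; edgeR quasi-likelihood adjusted p = 0.282; two-sided exact permutation p = 0.0159), and -0.17 without CD43-KO replicate 3 and Vec replicate 4.

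CD43-KO replicate 3 was the lowest tumour for 9 of the 10 enzymes, and Vec replicate 4 the highest for 9 of the 10. This pair was chosen after the values had been seen, so leaving it out makes the differences of those enzymes smaller by construction. The enzymes are sorted below only by the size of the difference that remained, and the sorting was not tested. Aldoa, Gpi1, Pgam1 and Ldha kept log2 fold changes of -0.29, -0.27, -0.20 and -0.17, and 3 of these 4 kept groups that did not overlap, as did 8.61% of all genes tested in that direction with these 7 tumours. Tpi1, Pfkl, Gapdh, Pgk1 and Eno1 came to between -0.07 and -0.02. Their 95% intervals with all 9 tumours were wide, between -0.55 and 0.09 for Gapdh, for example, so neither no change nor a fall like that of Aldoa lay outside them. Pfkp came to 0.12. The median of the 10 was -0.05 in these 7 tumours, against -0.27 in all 9, and the sign of each enzyme stayed the same.

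**Figure D3:**
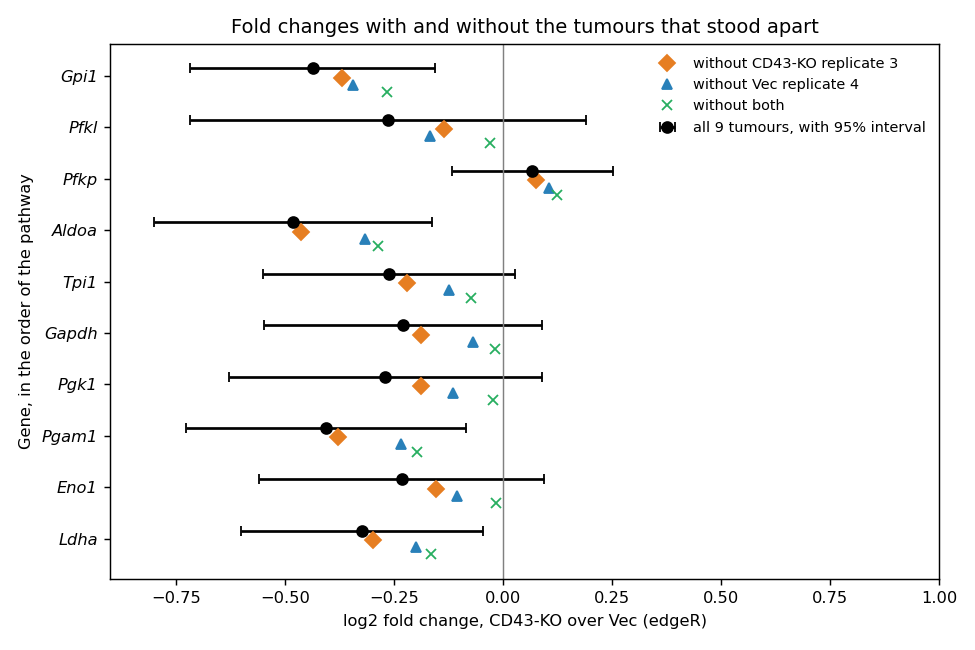
Log2 fold change of each enzyme, CD43-KO over Vec (horizontal axis), with all 9 tumours (black, with its 95% interval), without CD43-KO replicate 3 (orange), without Vec replicate 4 (blue) and without both (green). Tpi1, Pfkl, Gapdh, Pgk1 and Eno1 come to between -0.07 and -0.02 without both, while Aldoa and Gpi1 stay at -0.29 and -0.27.

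Gapdh is often used to scale other transcripts, so each enzyme was also expressed as its ratio to Gapdh in the same library, which does not depend on the scaling factors. Relative to Gapdh, Aldoa was lower in CD43-KO than in Vec tumours by a log2 difference of -0.25 and Gpi1 by -0.23, each with a two-sided exact permutation p of 0.0159, and Pgam1 by -0.17 (exact permutation p = 0.0397). Pfkp differed by 0.28 in the other direction (exact permutation p = 0.0556). The other 5 ratios lay between -0.10 and -0.02, all 9 ratios overlapped between the groups, and these p-values are not adjusted. Gapdh itself varied by a coefficient of variation of 17.9% over the 9 tumours, with a highest level 1.81 times its lowest. Among 12 common reference genes and Gapdh it ranked 8 of 13 by variation, after Tbp, the least variable at 4.33%, and Actb at 10.5%.

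Levels of different genes can be compared only per length of transcript. Per kilobase, and with Eno1 counted under its own name only, the order of the 10 enzymes was the same in both groups. Gapdh was highest, at 1582 CPM per kilobase in CD43-KO and 1855 in Vec tumours, followed by Ldha (1159.95 and 1451), Aldoa (786 and 1098), Pgk1 (737 and 889), Eno1 (724 and 851), Tpi1 (489 and 586), Pgam1 (309 and 409), Gpi1 (164 and 222), Pfkl (49.7 and 59.7) and Pfkp (26.1 and 24.9). Neighbours in this order differed by less than the larger of their SDs for Aldoa and Pgk1 and for Pgk1 and Eno1 in both groups, and for Gapdh and Ldha in Vec tumours only. Pkm, the pyruvate kinase that stands between enolase and lactate dehydrogenase, was at 1268 CPM per kilobase in CD43-KO and 1524 in Vec tumours. The lowest step of the series was thus phosphofructokinase, whose 2 listed subunits summed to less than any other enzyme.

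Near-identical copies limit what the counts of Eno1 and Gapdh mean. Eno1b, a protein-coding copy, matches the Eno1 transcript at 99.48% of bases over 85.6% of its length, and the tables also list a name Eno1_1. Together these names held 73.6% as many counts as Eno1 in CD43-KO and 72.5% in Vec libraries, so reads of the enolase transcript may be split or counted more than once. Summed with Eno1 they gave a log2 fold change of -0.23, the same as Eno1 alone. The order of levels depends on them, since the sum came to 1255 CPM per kilobase in CD43-KO and 1469.7 in Vec tumours, above Aldoa and Ldha. For Gapdh, 71 copies were found and the 3 listed in the tables held 2.39% as many counts as Gapdh in CD43-KO and 2.47% in Vec libraries. No copy at 95% identity over 50% of the length was found for Gpi1, Pfkl, Pfkp, Aldoa, Tpi1 or Pgam1. Of 15 other forms and partners of these enzymes, pyruvate kinase among them, 11 were tested, 4 had a log2 fold change above 0 and 7 below, with a median of -0.03 (-0.12 without CD43-KO replicate 3). Eno3, the muscle enolase, averaged 94.7 ± 13.7 CPM in CD43-KO and 108 ± 16.8 CPM in Vec tumours (SD; log2 fold change -0.20 ± 0.13 SE; edgeR quasi-likelihood adjusted p = 0.490). A further name, Eno3_1, averaged 72.8 ± 12.4 CPM in CD43-KO and 89.2 ± 16.5 CPM in Vec tumours (SD), with a log2 fold change of -0.29. Reads of Eno3 may therefore also be split or counted more than once. Pgam2, the muscle mutase, reached 23.9 CPM in CD43-KO replicate 3 and 1.97 to 3.76 CPM in the other 8 tumours, and Pgam1 made up 90.7% of mutase transcripts per kilobase there, against 98.7% to 99.4% elsewhere. Pkm was at 3126, 3102, 2348, 3429 and 3413 CPM in CD43-KO tumours, against 3397, 3409.8, 3576 and 4441 CPM in the Vec tumours, and its log2 fold change of -0.27 ± 0.14 (SE; edgeR quasi-likelihood adjusted p = 0.377) was close to those of Tpi1 and Pgk1.

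The steps before and after these enzymes are given here beside them. Of 12 genes for glucose entry, hexokinases and the PFKFB enzymes that set the activator of phosphofructokinase, 10 were tested, 9 lay above 0 and 1 below, with a median log2 fold change of 0.30, beside 0.03 over all genes. That median was 0.16 without CD43-KO replicate 3, 0.15 without Vec replicate 2 and 0.16 without CD43-KO replicate 3 and Vec replicate 4. None was called by edgeR, DESeq2 or voom. Hk2, the inducible hexokinase of many tumours, was at 96.4, 73.7, 64.3, 77.4 and 91.9 CPM in CD43-KO tumours, against 65.0, 61.2, 66.9 and 57.9 CPM in the Vec tumours. Every CD43-KO tumour but replicate 3 lay above all Vec tumours (log2 fold change 0.36 ± 0.12 SE; edgeR quasi-likelihood adjusted p = 0.250). Hk3, a hexokinase of myeloid cells, was at 59.6, 66.5, 97.4, 23.3 and 28.0 CPM in CD43-KO tumours, against 20.1, 29.3, 30.2 and 26.2 CPM in the Vec tumours. Its 3 high tumours were the 3 with high leukocyte markers, and the log2 fold change was 1.05 ± 0.39 (SE; edgeR quasi-likelihood adjusted p = 0.270). The part of leukocytes in it was not tested. The glucose transporter Slc2a1 averaged 252 ± 64.9 CPM in CD43-KO and 273 ± 39.0 CPM in Vec tumours, and Hk1, the hexokinase of most tissues, 109 ± 24.7 and 105 ± 24.1 CPM (SD), and neither passed (edgeR quasi-likelihood adjusted p = 0.790 and 0.917).

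Of 14 genes for lactate export and the fate of pyruvate, 9 lay above 0 and 5 below, with a median of 0.02 and no call by any tool. Bsg, the chaperone of the lactate transporters, averaged 573 ± 48.4 CPM in CD43-KO and 714 ± 151 CPM in Vec tumours (log2 fold change -0.32 ± 0.14 SE; edgeR quasi-likelihood adjusted p = 0.310). Pdk2, a kinase that inhibits pyruvate dehydrogenase, was at 7.29 ± 1.61 CPM in CD43-KO and 10.6 ± 2.80 CPM in Vec tumours (SD). Pdha1, part of pyruvate dehydrogenase, was at 159.8 ± 9.08 and 166 ± 6.31 CPM (SD). Of 22 genes of pathways that branch off glycolysis, 19 were tested, 7 above 0 and 12 below, with a median of -0.09. DESeq2 and limma voom each called 1 of them, Tigar, higher in CD43-KO tumours, as they did 1.48% and 1.04% of all genes tested. Tigar, which breaks down the activator of phosphofructokinase that the PFKFB enzymes make, was at 16.4, 15.1, 16.2, 15.9 and 15.5 CPM in CD43-KO tumours, against 11.2, 12.4, 13.98 and 12.3 CPM in the Vec tumours. All CD43-KO tumours lay above all Vec tumours, as for 2.08% of all genes tested, and Tigar had a DESeq2 adjusted p of 0.0317 and a limma voom adjusted p of 0.0484, but an edgeR quasi-likelihood adjusted p of 0.202. Tkt, the transketolase of the pentose phosphate pathway, averaged 278 ± 32.2 CPM in CD43-KO and 358 ± 66.7 CPM in Vec tumours (log2 fold change -0.37 ± 0.13 SE; edgeR quasi-likelihood adjusted p = 0.268). Phgdh and Psat1, which lead into serine synthesis, averaged 659.9 ± 37.9 and 385 ± 10.4 CPM in CD43-KO, against 755 ± 128 and 429.7 ± 59.8 CPM in Vec tumours.

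HIF target genes outside glycolysis had a median close to that of the enzymes. Of 19, 3 lay above 0 and 16 below, with a median log2 fold change of -0.29. The 3 above 0 were Stc2 (0.57 ± 0.18 SE, edgeR quasi-likelihood adjusted p = 0.230), Ero1l (0.14) and P4ha2 (0.05). edgeR called none, DESeq2 called 5 lower (2.18% of all genes) and limma voom 3 lower (2.04% of all genes). In 4 of the 19 (Ankrd37, Bnip3l, Kdm3a and P4ha1) every CD43-KO tumour lay below every Vec tumour, as in 3.50% of all genes tested. The highest CD43-KO and lowest Vec tumour nearly touched for Kdm3a (77.9 and 78.8 CPM) and Ankrd37 (27.6 and 28.7 CPM). Ddit4, a stress-induced brake on mTORC1, was at 96.9, 75.7, 50.8, 87.6 and 98.7 CPM in CD43-KO tumours, against 186, 149, 94.0 and 182 CPM in the Vec tumours. Vec replicate 3 lay among the CD43-KO tumours and the other Vec tumours well above them (log2 fold change -0.90 ± 0.23 SE; edgeR quasi-likelihood adjusted p = 0.192; DESeq2 adjusted p = 0.0128). Adm, which encodes the vessel-dilating peptide adrenomedullin, averaged 2.36 ± 0.498 CPM in CD43-KO and 5.03 ± 2.18 CPM in Vec tumours (log2 fold change -1.09 ± 0.29 SE; edgeR quasi-likelihood adjusted p = 0.195; DESeq2 adjusted p = 0.0233). Smaller differences were measured in the most abundant of the list. Ndrg1, a stress-responsive gene, averaged 503 ± 142 CPM in CD43-KO and 593 ± 83.9 CPM in Vec tumours, and Vegfa, the vascular growth factor, 326 ± 88.3 and 348 ± 43.2 CPM (SD). Without CD43-KO replicate 3 and Vec replicate 4 the median of the HIF list was -0.20, beside -0.05 for the enzymes.

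On the scale of mean log2 CPM relative to the Vec mean, the HIF list was at -0.21, -0.35, -0.89, -0.23 and -0.13 in CD43-KO tumours, against 0.03, -0.15, -0.08 and 0.20 in Vec tumours. On that scale the 10 enzymes were at -0.24, -0.16, -0.54, -0.16 and -0.27 in CD43-KO tumours, against -0.08, -0.13, -0.14 and 0.35 in Vec tumours. The same tumours were lowest and highest in both lists, and the lowest, CD43-KO replicate 3, was the one with muscle and fat transcripts and the highest leukocyte markers, whose part in these levels was not tested. The listed regulators of the pathway's transcription had a median log2 fold change of 0.19 (8 of 10 above 0). The list mixes genes that raise and genes that restrain it, so its median gives no direction of their effect. Hif1a, a subunit of HIF-1 that is regulated mainly as a protein, was at 188, 191, 280.01, 145 and 172 CPM in CD43-KO tumours, against 144, 129, 167 and 128 CPM in the Vec tumours. Its groups overlapped and its direction was opposite to that of the HIF targets (log2 fold change 0.46 ± 0.18 SE; edgeR quasi-likelihood adjusted p = 0.276). Mlxip, a partner of MLX in the transcriptional response to glucose, averaged 34.5 ± 3.63 CPM in CD43-KO and 25.1 ± 5.37 CPM in Vec tumours (edgeR quasi-likelihood adjusted p = 0.246). Its groups did not overlap, as for 2.08% of all genes tested in that direction. They nearly touched, at 29.93 CPM in the lowest CD43-KO tumour and 29.87 CPM in the highest Vec tumour. Trp53, which encodes p53, averaged 318 ± 59.5 CPM in CD43-KO and 294 ± 19.01 CPM in Vec tumours.

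**Figure D4:**
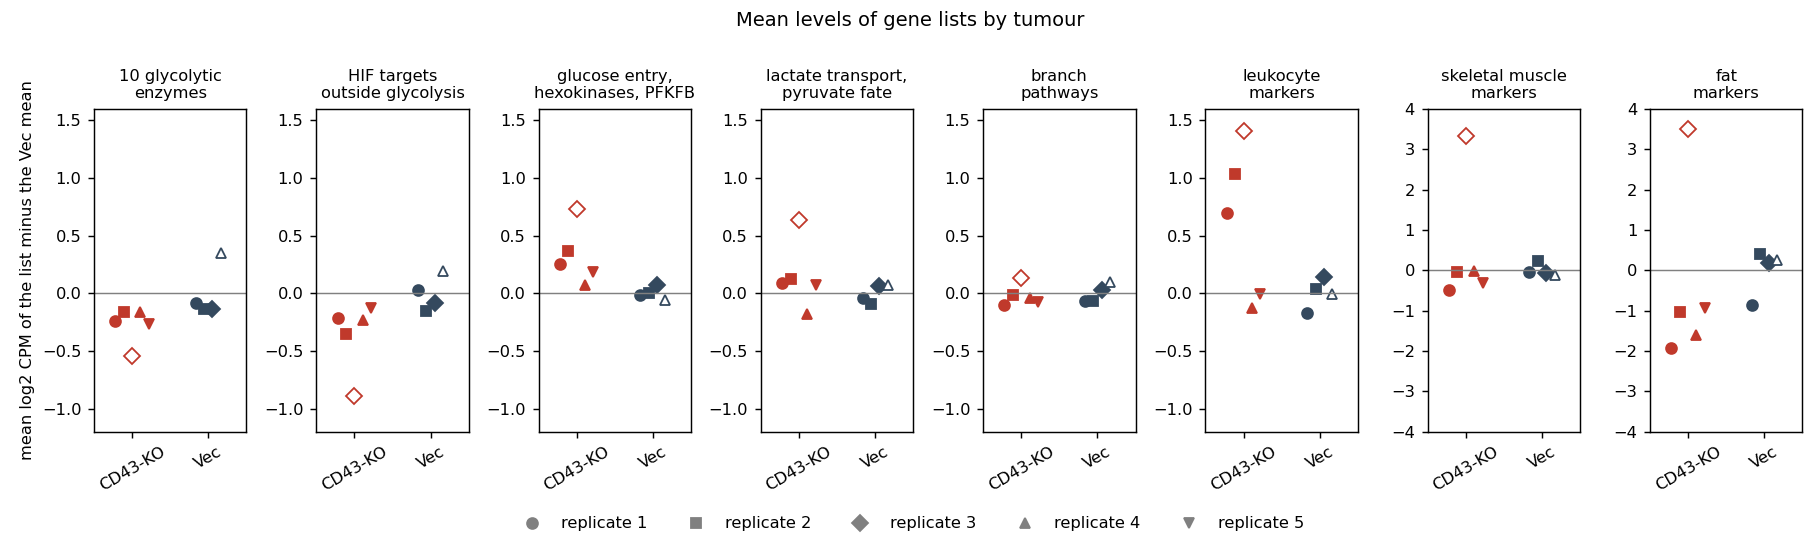
Mean log2 CPM of each gene list in each tumour minus the mean of the 4 Vec tumours (vertical axes; muscle and fat markers on a wider axis), CD43-KO in red left of Vec in dark blue, with open symbols for CD43-KO replicate 3 and Vec replicate 4. The enzymes and the HIF targets are lowest in CD43-KO replicate 3 (-0.54 and -0.89), where muscle markers reach 3.32, and highest in Vec replicate 4 (0.35 and 0.20).

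Since many of these genes are known HIF-1 targets, the 250 bases before each transcription start were searched in RefSeq promoter windows (GRCm38.p6) for the core of the HIF binding site, ACGTG or GCGTG, on both strands. All 10 genes matched, with 15 windows. ACGTG was found in 4 of the 10 genes (Aldoa, Pgk1, Pgam1 and Ldha) and GCGTG in 6 of 10. By window, ACGTG was in 5 of 15 (33.33%) and GCGTG in 8 of 15 (53.33%), beside 16.57% and 28.16% of all 32851 windows. Windows 2 and 3 of Aldoa overlap and hold the same ACGTG match, and windows 2 and 3 of Eno1 overlap and hold the same GCGTG matches. The counts by window thus hold some sites more than once, and no share by gene was taken over all genes. The windows of Ldha, Pgk1, Pgam1 and Gpi1 are shown because they run from several matches to none while all 4 genes had lower means in CD43-KO tumours. Bases are written 5′ to 3′ in the direction of transcription, and capitals mark ACGTG and its reverse complement CACGT. In Ldha a stretch CACGTG holds both at once and is also the E-box that MYC and its partner MAX bind. For Ldha the first of its 2 windows is shown.
Ldha, chr7:46845554-46845803, plus strand: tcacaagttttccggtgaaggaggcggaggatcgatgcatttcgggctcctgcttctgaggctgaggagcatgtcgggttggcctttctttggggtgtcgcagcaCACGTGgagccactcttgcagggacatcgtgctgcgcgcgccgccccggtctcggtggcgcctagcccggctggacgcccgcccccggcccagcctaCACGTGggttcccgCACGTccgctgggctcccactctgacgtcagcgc
Pgk1, chrX:106186850-106187099, plus strand: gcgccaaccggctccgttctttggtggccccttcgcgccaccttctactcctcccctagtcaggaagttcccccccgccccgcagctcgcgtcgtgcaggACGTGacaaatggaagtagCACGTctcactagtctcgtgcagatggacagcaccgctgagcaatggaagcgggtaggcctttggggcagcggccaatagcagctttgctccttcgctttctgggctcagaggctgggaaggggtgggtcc
Pgam1, chr19:41911621-41911870, plus strand: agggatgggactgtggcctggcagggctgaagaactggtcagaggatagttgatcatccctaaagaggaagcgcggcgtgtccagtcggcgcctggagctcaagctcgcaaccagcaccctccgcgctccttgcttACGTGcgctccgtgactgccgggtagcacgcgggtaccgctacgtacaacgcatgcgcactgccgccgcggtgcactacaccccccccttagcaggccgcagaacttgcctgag
Gpi1, chr7:34230337-34230586, minus strand: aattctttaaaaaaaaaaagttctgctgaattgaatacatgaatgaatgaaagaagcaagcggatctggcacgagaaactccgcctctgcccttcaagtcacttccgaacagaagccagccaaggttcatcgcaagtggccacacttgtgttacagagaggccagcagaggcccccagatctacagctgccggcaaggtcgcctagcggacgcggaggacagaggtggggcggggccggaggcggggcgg

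The window of Ldha held 5 matches to ACGTG, counting both strands, in 3 separate stretches. Pgk1 held 2 and Pgam1 held 1, and Gpi1 held none of either core. The log2 fold changes of the 4 genes with ACGTG were -0.48 for Aldoa, -0.40 for Pgam1, -0.32 for Ldha and -0.27 for Pgk1, and those of the 6 genes without it ran from -0.44 for Gpi1 to 0.07 for Pfkp. Among the HIF targets outside glycolysis, 15 genes had a window and 11 of them held ACGTG in at least 1 window, or 12 of 20 windows. A match is a string of letters and not a bound site, and a window without one says nothing of sites elsewhere.

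Aldoa lies on the same chromosome as the targeted gene, and its lower coordinate is at -328 kb from that of Spn (chromosome 7, 127123637 to 127145552), so the genes around both were listed after the values had been seen. Of 88 other genes tested within 1 Mb of Spn, Aldoa among them, 44 lay above 0 and 44 below, with a median log2 fold change of -0.00, beside 0.03 over all genes. DESeq2 called 4 of them higher and 2 lower, limma voom 1 higher and 1 lower, and edgeR 0. Qprt, the nearest to Spn at -15.9 kb, had the largest log2 fold change of them, 1.92 ± 0.37 (SE; edgeR quasi-likelihood adjusted p = 0.137). Its level was low, at a mean of 0.976 CPM, and all CD43-KO tumours lay above all Vec tumours. Whether the knockout acts on these neighbours was not tested. Within 100 kb of Aldoa, 7 of 12 other genes lay above 0 and 5 below, with a median of 0.03. The genes nearest to the fold change of Aldoa there were the kinase gene Mapk3 (-0.43 ± 0.11, SE) and the phosphatase gene Ppp4c (-0.39 ± 0.15, SE), with edgeR quasi-likelihood adjusted p of 0.192 and 0.273. Mapk3 had a DESeq2 adjusted p of 0.0333 and a limma voom adjusted p of 0.0410, and Ppp4c had 0.152 and 0.133. Chromosome 7 as a whole had a median of 0.00 over 1270 genes. Pgam1 lies on chromosome 19, where 64.8% of 568 genes lay below 0 with a median of -0.10, beside 45.2% and 0.03 on the other chromosomes, and whether that shift bears on Pgam1 was not tested.

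**Figure D5:**
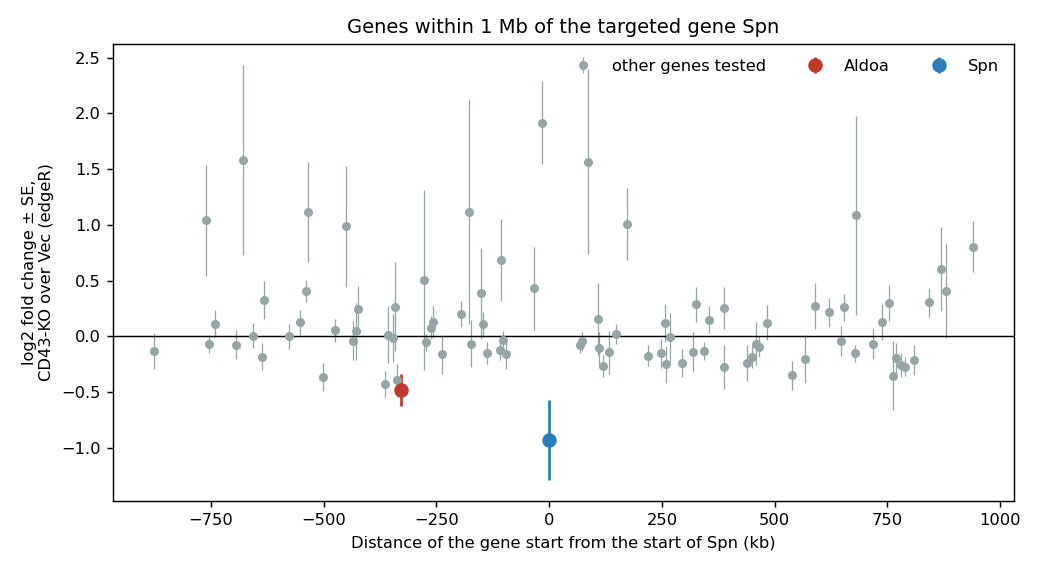
Log2 fold change ± SE, CD43-KO over Vec (vertical axis), of genes tested within 1 Mb of Spn, by the distance of the gene's lower coordinate from that of Spn in kb (horizontal axis); Aldoa is red and Spn blue. Grey genes lie on both sides of 0 (44 above and 44 below, Aldoa counted among them), and Aldoa is at -0.48 and Spn at -0.93. The highest gene is Qprt, at 1.92.

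The gene outside the lists whose log2 CPM followed the mean of the 10 enzymes most closely over the 9 tumours was Kcmf1, an E3 ubiquitin ligase gene, with a Pearson r of 0.988, followed by Gsto1, a glutathione transferase gene, with 0.979. Next were LOC115489936 with 0.976, Yif1b with 0.960 and Prmt7 with 0.957, beside a 95th percentile of 0.757 over all genes tested. Kcmf1 was at 73.1, 74.5, 66.3, 75.2 and 72.4 CPM in CD43-KO tumours, against 78.2, 78.6, 76.3 and 90.2 CPM in the Vec tumours. As for the enzymes, CD43-KO replicate 3 was lowest and Vec replicate 4 highest. Over the other 7 tumours r was 0.914 for Kcmf1, 0.804 for Gsto1, 0.848 for LOC115489936, 0.425 for Yif1b and 0.475 for Prmt7. Among the enzymes themselves, r with the mean of the 10, which each is part of, ran between 0.843 and 0.967 in 9 of them and was 0.234 for Pfkp over the 9 tumours. Over the 7 tumours it was highest for Pgam1 (0.940) and Aldoa (0.875) and lay below 0 for Pgk1 (-0.25) and Pfkp (-0.38). These correlations describe tumours that share their libraries and are given without a test.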

How the data were processed

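Whole-tumour RNA was sequenced from 5 CD43-KO and 4 Vec tumours, after TRIzol extraction and NEBNext Ultra library preparation per the labels' protocols. The authors deposited whole-number counts per gene name, 1 table per library, unscaled. Tools named without a role in the submitters' processing notes are HISAT2 2.1.0, StringTie 1.3.5 and DESeq2, with the build GRCm38. How reads were counted, by which annotation and with which strand setting is not given in the sources used here, so antisense reads cannot be told apart. All 9 tables held the same 42454 names.

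The counts were analysed in R 4.3.3. Names were filtered with filterByExpr (minimum count 10, minimum total count 15) and scaled by TMM factors. The test was edgeR 4.0.16's quasi-likelihood F test (robust) on the group, with Benjamini-Hochberg adjustment over all 18243 names tested and a threshold of 0.05. The common biological coefficient of variation was 0.313, with 3.41 median prior degrees of freedom. SEs follow from the log2 fold change and F. The 95% intervals use the t distribution with the fit's degrees of freedom. Exact permutation tests of single values (two-sided) ran over every split of the tumours. DESeq2 1.42.0, limma 3.58.1 voom, other scalings and filters, and leaving out tumours were alternatives. The test code was tested on simulated data. Log2 CPM used a prior count of 2 for list levels. All 36 pairs of libraries differed by more than sampling noise (chi-square of at least 36.3 per degree of freedom).

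Coordinates and promoter windows are from RefSeq tables of GRCm38.p6, and 91.4% of the names tested had coordinates. Transcript lengths are those of a principal transcript per gene in GENCODE. Copies were searched with blastn 2.17.0. The members and the lists were chosen with earlier results of these data known. Named were all 10 enzymes, Spn, and of each other list of the pathway the 2 most abundant genes and the 2 with the smallest edgeR p, since none passed, plus the 5 genes outside the lists that correlated best with the mean of the 10. Ankrd37, Bnip3l, Kdm3a, P4ha1, Stc2, Ero1l, P4ha2, Mapk3, Ppp4c, Qprt and Eno3_1 were named after their values were seen. Marker lists of red blood cells, fibroblasts, endothelium and proliferation were also scored: their medians of log2 fold change were -0.17, -0.04, 0.26 and 0.05, and those of leukocytes, muscle and fat were 0.74, 1.58 and 1.58. The muscle and fat medians rest on CD43-KO replicate 3, since the other CD43-KO tumours lay below the Vec mean in both. The epithelial and reference lists had medians of -0.33 and -0.08.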

Additional observations from a re-analysis of the deposited data

Results flagged for a closer look

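In 5 of 32 groups of values a tumour lay far from the others of its group by Dixon's test, which flags about 1 in 20 single groups by chance. The groups share the same tumours and hold enzymes that vary together, so they are not independent. All 5 flags fell on CD43-KO replicate 3 or Vec replicate 4, so their number cannot be set against that rate. CD43-KO replicate 3 was low for Gpi1, at 372 CPM with the nearest CD43-KO tumour at 488 CPM, and for Pgk1, at 1000.6 CPM with the nearest at 1392 CPM. Its share of counts in the 10 enzymes was 0.846%, with the nearest CD43-KO tumour at 1.10%. Vec replicate 4 was high for Eno1, at 2182 CPM with the nearest Vec tumour at 1593 CPM, and for the share of counts in the 10 enzymes, at 1.48% with the nearest at 1.17%.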

How the results depend on the processing

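Each enzyme kept its direction in every alternative run, and the mean log2 CPM of the 10, CD43-KO minus Vec, was -0.27, with -0.33 to -0.16 when a tumour was left out and -0.09 without CD43-KO replicate 3 and Vec replicate 4, an alternative chosen after seeing the data, as was summing the Eno1 names. edgeR called 0 genes in all 9 tumours, 1 without the filter on low counts, and 0 to 29 when a tumour was left out, with 29 without Vec replicate 3. DESeq2 called 612 genes and limma voom 562. DESeq2 called 2 of the enzymes, Gpi1 and Aldoa, and leaving out a tumour called 0 of them. The cause of these gaps was not tested. On library totals the median of all genes was 0.11, beside 0.03 with TMM, and that of the enzymes -0.16. The adjusted p of Gpi1 ran from 0.0462 to 0.418 and that of Aldoa from 0.0493 to 0.397 over the alternatives. limma voom gave no mean over the 10. The medians of the lists of other forms, lactate export and branch pathways lay close to 0 and changed sign in at least 1 alternative each. No paired analysis was possible because replicate numbers come only from the order of deposition. With 5 and 4 tumours no exact permutation p can lie below 0.00794.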
